A study of Mus musculus with 14 samples.

Results

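The mitochondrial ribosomal protein genes were examined in single mouse oocytes with and without maternal Kdm1a, the gene of the histone demethylase LSD1. They were taken as every gene of the count table whose symbol starts with Mrpl or Mrps followed by a digit, pseudogene symbols left out, which gave 77 of the 24064 genes, 48 with Mrpl and 29 with Mrps symbols. Single-oocyte RNA-seq was read as counts for 4 wt/wt oocytes of C57BL/6J females (wt1, wt3, wt4 and wt5), 1 f/f oocyte (C3) and 5 oocytes of mutant females (D1, D2, D3, D4 and D7). The f/f oocyte carried the floxed Kdm1a allele without cre and the mutant oocytes carried it with Zp3-cre, which is expressed in growing oocytes and deletes the first exon, and both were of mixed B6;129 background. The wt/wt and f/f oocytes together were the control group, so that wt/wt oocytes differed from mutant oocytes in strain as well as in genotype and 1 oocyte alone shared the strain of the mutants. The labels name neither ages nor the females, and the p-values given here measure the spread between oocytes.

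Mitochondrial ribosomes translate the few proteins encoded by mitochondrial DNA, all of them subunits of the respiratory chain and ATP synthase. Their RNAs come from mitochondrial DNA, but their proteins are nuclear-encoded, made in the cytoplasm and imported. Some of these proteins have bacterial counterparts and others are found in mitochondria alone. Oocytes carry the mitochondria that the embryo inherits, and fully grown oocytes live on stored RNA.

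The C3, D3, D4 and D7 names each belonged to 2 libraries, which were summed, although the labels number every library as an oocyte of its own, so 14 libraries gave 10 oocytes with 1375187 to 6928548 counts. Levels are CPM, counts scaled to library sizes adjusted by TMM factors. These factors were 1.30 to 1.37 in wt/wt, 0.65 in f/f and 0.78 to 0.95 in mutant oocytes. CPM are thus relative levels, neither a share of all counts nor molecules per oocyte. Kdm1a itself had 27 to 669 counts in control and 0 to 10 in mutant oocytes, and its log2 fold change was -5.02 (standard error 0.86, adjusted p = 0.0011), and -4.05 without C3 and -5.97 without D7. Each of the 12 oocyte markers had counts, though Figla was at 0 in wt1, wt3 and wt5, with a summed level of 27034 to 83968 CPM in control and 64641 to 140307 CPM in mutant oocytes. By the threshold used for members, 7 of the 12 were higher in mutant oocytes (58.3%, against 14.7% of all genes tested), Zp2 (log2 fold change 4.75) and Figla (5.71) among them. Of 18 cumulus and granulosa cell markers, 10 were at 0 in every oocyte, Fshr, Amh and Foxl2 among them, and their summed level was 18.8 to 67.4 CPM in control and 84.1 to 150 CPM in mutant oocytes. Among them Cyp19a1 had a mean of 37.8 CPM in control and 106 in mutant oocytes (adjusted p = 0.0262), whereas Nr5a2, the other marker tested, had 8.13 and 2.71 (adjusted p = 0.0916). The part of these marker differences in the results below was not tested.

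Each of the 77 genes had a count in at least 1 oocyte, and 43 had a count in all 10. Most were low, and 20 of them reached a mean of 10 CPM in the wt/wt oocytes. To compare genes, CPM was divided by transcript length, up to the 3000 bases from the 3′ end that the cDNA method reaches. The level per kb in wt/wt oocytes was highest for Mrps36, at 276 ± 105 CPM per kb (SD, n = 4), followed by Mrpl18 at 104 ± 41.0 and Mrps33 at 50.5 ± 13.8. They are a large subunit protein whose bacterial counterpart binds the smallest ribosomal RNA (Mrpl18), a small subunit protein found in mitochondria alone (Mrps33) and a protein now placed in the 2-oxoglutarate dehydrogenase complex rather than the ribosome (Mrps36). The range over wt/wt oocytes was 121 to 342 CPM per kb for Mrps36, 67.6 to 162 for Mrpl18 and 36.9 to 69.7 for Mrps33, so each overlapped the next. The median over the 77 genes was 2.87 CPM per kb. Mrps36 has 3 annotated pseudogenes of its name, and Mrpl18 overlaps Tcp1 on the other strand, and the counting setting for strand is not given in the sources used here. In all, 35 of the 77 genes are overlapped by a gene on the other strand.

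Promoter sequences are shown for 5 members whose values follow, Mrps17 and Mrps33 as genes called higher, Mrpl50 as a gene called lower, and Mrps12 and Mrpl10 as members with matches to YY1 and NRF1 motifs. They are RefSeq windows of GRCm38.p6, 250 bases before to 50 after the gene's start, written along the gene's own strand. Capitals mark matches, on either strand, to 4 short motifs: CCGGAAG (ETS factors such as GABPA), GCGCATGC (NRF1), AAGATGG (YY1) and CACGTG (E-box). GABPA and NRF1 are known activators of nuclear genes for mitochondrial proteins. No motif of the 4 is contained in another. The windows are chr5:129715247-129715546 (plus) for Mrps17, chr6:39810887-39811186 (minus) for Mrps33, chr4:49521034-49521333 (minus) for Mrpl50, chr7:28741772-28742071 (minus) for Mrps12 and chr11:97041332-97041631 (plus) for Mrpl10.
Mrps17: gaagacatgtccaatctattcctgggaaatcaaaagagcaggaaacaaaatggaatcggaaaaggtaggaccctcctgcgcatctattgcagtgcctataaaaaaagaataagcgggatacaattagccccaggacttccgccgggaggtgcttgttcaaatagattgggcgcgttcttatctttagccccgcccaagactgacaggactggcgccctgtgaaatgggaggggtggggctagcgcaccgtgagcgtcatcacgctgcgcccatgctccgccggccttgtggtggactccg
Mrps33: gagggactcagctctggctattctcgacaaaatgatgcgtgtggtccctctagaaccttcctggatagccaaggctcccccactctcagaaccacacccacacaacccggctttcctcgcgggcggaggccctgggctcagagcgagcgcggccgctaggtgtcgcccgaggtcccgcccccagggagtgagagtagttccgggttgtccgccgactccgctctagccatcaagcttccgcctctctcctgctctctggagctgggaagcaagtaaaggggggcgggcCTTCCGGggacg
Mrpl50: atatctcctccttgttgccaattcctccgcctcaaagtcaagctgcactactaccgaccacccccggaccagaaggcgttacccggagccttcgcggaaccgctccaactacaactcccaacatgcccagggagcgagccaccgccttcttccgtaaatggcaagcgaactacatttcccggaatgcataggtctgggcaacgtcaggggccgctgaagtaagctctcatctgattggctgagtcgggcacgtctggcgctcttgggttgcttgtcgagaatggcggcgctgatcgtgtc
Mrps12: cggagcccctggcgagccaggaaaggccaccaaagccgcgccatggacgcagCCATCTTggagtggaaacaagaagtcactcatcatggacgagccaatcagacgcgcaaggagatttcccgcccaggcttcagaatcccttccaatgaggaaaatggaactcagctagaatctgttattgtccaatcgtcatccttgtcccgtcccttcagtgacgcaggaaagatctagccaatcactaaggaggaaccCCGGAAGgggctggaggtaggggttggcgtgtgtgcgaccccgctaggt
Mrpl10: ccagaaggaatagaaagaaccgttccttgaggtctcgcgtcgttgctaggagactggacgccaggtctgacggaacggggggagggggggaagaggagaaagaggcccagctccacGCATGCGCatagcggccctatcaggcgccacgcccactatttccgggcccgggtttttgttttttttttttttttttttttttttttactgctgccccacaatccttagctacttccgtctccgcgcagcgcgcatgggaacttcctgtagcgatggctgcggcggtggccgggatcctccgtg
Mrps33 holds the ETS letters 38 bases after the annotated start, Mrps12 holds them at the start with a YY1 match further upstream, and Mrpl10 holds the NRF1 letters. Mrps17 and Mrpl50 hold none of the 4.

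A window was found for 68 of the 77 members. The ETS letters were in 25 of them (36.8%), against 9.93% of the 27025 genes with a window and 20.5% of the 7033 such genes that were tested here. The NRF1 letters were in 8 (11.8%, against 3.05% of all genes and 6.46% of those tested), the YY1 letters in 13 (19.1%, against 7.28% and 8.76%) and the E-box in 5 (7.35%, against 8.09% and 12%). Among members called higher in mutant oocytes, 1 of the 8 with a window held the ETS letters (Mrps33) and 1 held the YY1 letters (Mrps24). Of the 2 called lower with a window, Mrps26 held the ETS letters. These matches are a description of the sequence and not evidence of binding.

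The first comparison asked which members differed between mutant and control oocytes. In the mutant oocytes 9 members were higher and 3 were lower, at an adjusted p under 0.05 and at least a 2-fold change in the quasi-likelihood test of edgeR, with p-values adjusted by Benjamini-Hochberg over all 9198 genes tested. The 66 members that passed the filter on low counts thus gave 13.6% higher and 4.55% lower, against 14.7% of all genes tested that were called higher and 11.2% called lower. At an unadjusted p under 0.05 it was 16 of 66 members (24.2%) and 39.4% of all genes tested. The 66 members had a median log2 fold change of 0.16, and all genes tested had 0.17. Members had fewer counts than other genes, with a median of 166.5 summed over the 10 oocytes against 376 for all genes tested. With library totals in place of TMM the median of all genes moved to -0.23 and that of members to -0.22, and 5 members were called higher and 5 lower, beside 10.5% of all genes higher and 18.1% lower. With trends in GC content and transcript length removed, 4 members were higher and 5 lower, beside 11.7% and 13.9% of all genes. The median of members was then -0.34 and that of all genes -0.04.

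**Figure D1:**
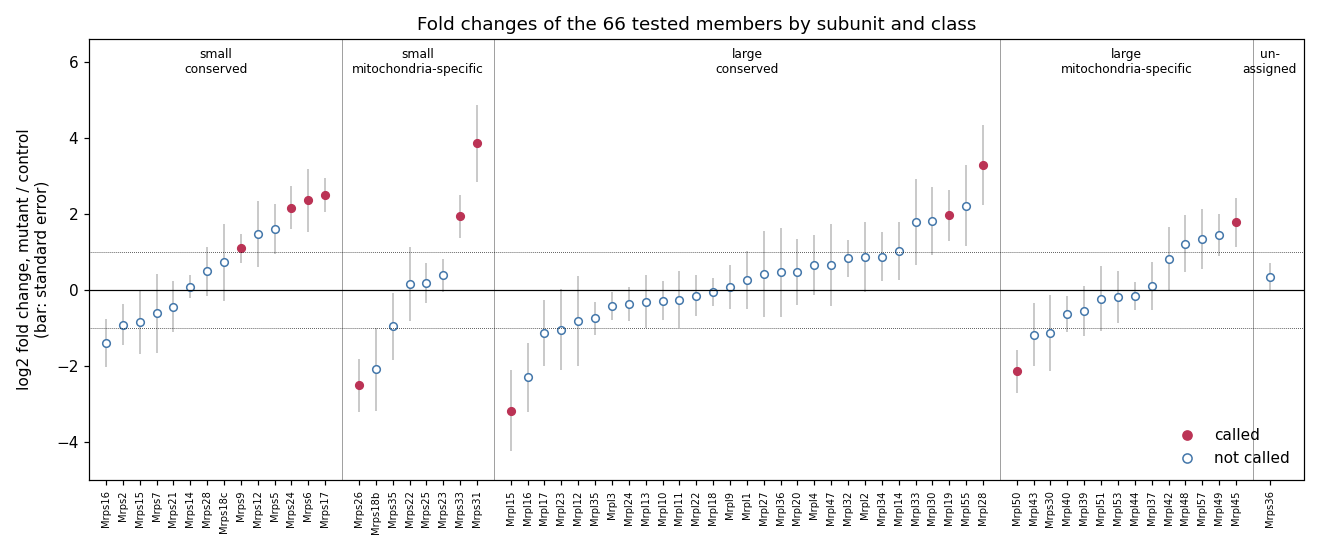
Log2 fold change of mutant over control oocytes (vertical axis; bars, standard error) for the 66 tested members along the horizontal axis, sorted within subunit and within conserved or mitochondria-specific class. Filled points are the 12 called members, 9 above 0 and 3 below, and dotted lines mark a 2-fold change.

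Among small subunit proteins with bacterial counterparts, 4 were higher. Mrps17, a protein of the ribosome's body that contacts ribosomal RNA (chr5:129715497-129722556, plus strand), was at 4.97, 2.59, 3.68 and 5.38 CPM in the wt/wt oocytes wt1, wt3, wt4 and wt5, at 5.77 in f/f and at 34.0, 30.5, 20.7, 28.1 and 15.5 in the mutants D1, D2, D3, D4 and D7. Every mutant oocyte lay above every control oocyte, and the f/f oocyte lay just above the highest wt/wt oocyte. The mean was 4.48 ± 1.32 CPM (SD, n = 5) in control and 25.7 ± 7.55 (n = 5) in mutant oocytes (log2 fold change 2.50, standard error 0.45, adjusted p = 0.00135).

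Mrps9, which in bacteria reaches the decoding site with its tail (chr1:42851233-42905683), was at 13.8, 10.4, 9.41 and 10.8 CPM in wt/wt, 8.44 in f/f and 26.3, 25.0, 22.1, 22.1 and 16.5 in mutant oocytes. The groups did not overlap and the spread within each was small, with 10.6 ± 2.03 CPM in control and 22.4 ± 3.80 in mutant oocytes (log2 fold change 1.09, standard error 0.39, adjusted p = 0.0477). Mrps24, the counterpart of a bacterial protein at the mRNA entry channel (chr11:5703983-5715680), was at 2.76, 2.59, 2.04 and 4.93 CPM in wt/wt, 3.55 in f/f and 18.1, 15.2, 4.27, 25.2 and 8.48 in mutant oocytes. D3 was the one mutant oocyte within the control range, and the log2 fold change was 2.15 (standard error 0.56, adjusted p = 0.012). Mrps24 overlaps Urgcp on the same strand, which had 1 count in all oocytes together.

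Mrps6, a protein of the platform of the small subunit (chr16:92058270-92112227), was at 2.76, 1.73, 1.23 and 15.7 CPM in wt/wt, 0.222 in f/f and 38.9, 13.4, 14.6, 36.8 and 4.99 in mutant oocytes. The control oocyte wt5 stood above 3 of the mutant oocytes, and the log2 fold change was 2.36 (standard error 0.83, adjusted p = 0.0454), or 4.00 (adjusted p = 0.00301) without wt5. Slc5a3 overlaps Mrps6 on the same strand and had 2 to 31 counts in control and 0 to 6 in mutant oocytes.

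Among small subunit proteins found in mitochondria alone, Mrps31 and Mrps33 were higher, both with their highest value in D4. Mrps31 (chr8:22411361-22429665) had 5, 0, 0 and 14 counts in wt/wt, 1 in f/f and 36, 22, 13, 528 and 17 in mutant oocytes, or 0 to 6.28 CPM in control and 4.63 to 80.3 in mutant oocytes. D3, at 4.63 CPM, was below wt5, and the other mutant oocytes were above all controls. The log2 fold change was 3.85 (standard error 1.02, adjusted p = 0.013), without D4 it was 2.69 (adjusted p = 0.0593) and without wt5 it was 5.29 (adjusted p = 0.00454).

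Mrps33 (chr6:39801804-39810988) was at 40.9, 51.4, 54.4 and 77.2 CPM in wt/wt, 25.3 in f/f and 149, 74.3, 105, 561 and 55.8 in mutant oocytes. The ranges overlapped, since D2 and D7 lay below wt5. The log2 fold change was 1.93 (standard error 0.57, adjusted p = 0.0207), and without D4 it fell to 0.96 (adjusted p = 0.0949). Both libraries of D4 carried the high values, with 2162 and 1528 Mrps33 counts and 284 and 244 Mrps31 counts.

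Of the large subunit proteins, 3 were higher. Mrpl45, which lies at the exit of the peptide tunnel and anchors the ribosome to the inner membrane (chr11:97315716-97329920), was at 0.553, 2.59, 0.818 and 3.14 CPM in wt/wt, 6.66 in f/f and 7.68, 7.92, 6.77, 15.4 and 11.5 in mutant oocytes. The groups did not overlap, but the f/f oocyte lay next to D3 and apart from wt/wt. The log2 fold change was 1.77 (standard error 0.63, adjusted p = 0.0488), or 2.42 without C3 (adjusted p = 0.0107).

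Mrpl19, whose bacterial counterpart sits at the interface of the subunits (chr6:81957851-81965958), was at 1.66, 0.432, 1.23 and 1.79 CPM in wt/wt, 6.22 in f/f and 9.32, 12.2, 4.27, 14.9 and 5.98 in mutant oocytes. The f/f oocyte lay above D3 and D7, so that mutant oocytes were above wt/wt but not above f/f (log2 fold change 1.95, standard error 0.67, adjusted p = 0.0404). Without C3 it was 2.85 (adjusted p = 0.0056). Mrpl28 (chr17:26123500-26126613) rested on few reads, with 0, 0, 0 and 2 counts in wt/wt, 3 in f/f and 16, 6, 3, 31 and 1 in mutant oocytes. D7 had fewer counts than f/f, and the log2 fold change was 3.28 (standard error 1.05, adjusted p = 0.031).

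The 3 lower members shared a pattern across groups. Mrpl50, a large subunit protein found in mitochondria alone (chr4:49512596-49521093), was at 22.1, 11.2, 18.8 and 12.1 CPM in wt/wt, 4.44 in f/f and 6.03, 1.83, 2.14, 2.89 and 2.49 in mutant oocytes. Every mutant oocyte was below every wt/wt oocyte, and the f/f oocyte was inside the mutant range. The log2 fold change was -2.15 (standard error 0.57, adjusted p = 0.0132).

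Mrps26, a small subunit protein found in mitochondria alone (chr2:130563742-130568695), was at 16.03, 8.63, 8.18 and 6.28 CPM in wt/wt, 1.78 in f/f and 0.548, 3.05, 1.42, 1.06 and 0.997 in mutant oocytes (log2 fold change -2.52, standard error 0.70, adjusted p = 0.0161). Mrpl15, with a bacterial counterpart in the core of the large subunit (chr1:4773206-4785739), had 9, 20, 6 and 5 counts in wt/wt, 1 in f/f and 0, 0, 0, 6 and 1 in mutant oocytes (log2 fold change -3.18, standard error 1.07, adjusted p = 0.0371, and -4.40 without D4). For all 3 genes the f/f oocyte was below each wt/wt oocyte and within the mutant range, as both held for 21.0% of all 1031 genes called lower, so for them strain and genotype cannot be told apart.

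**Figure D2:**
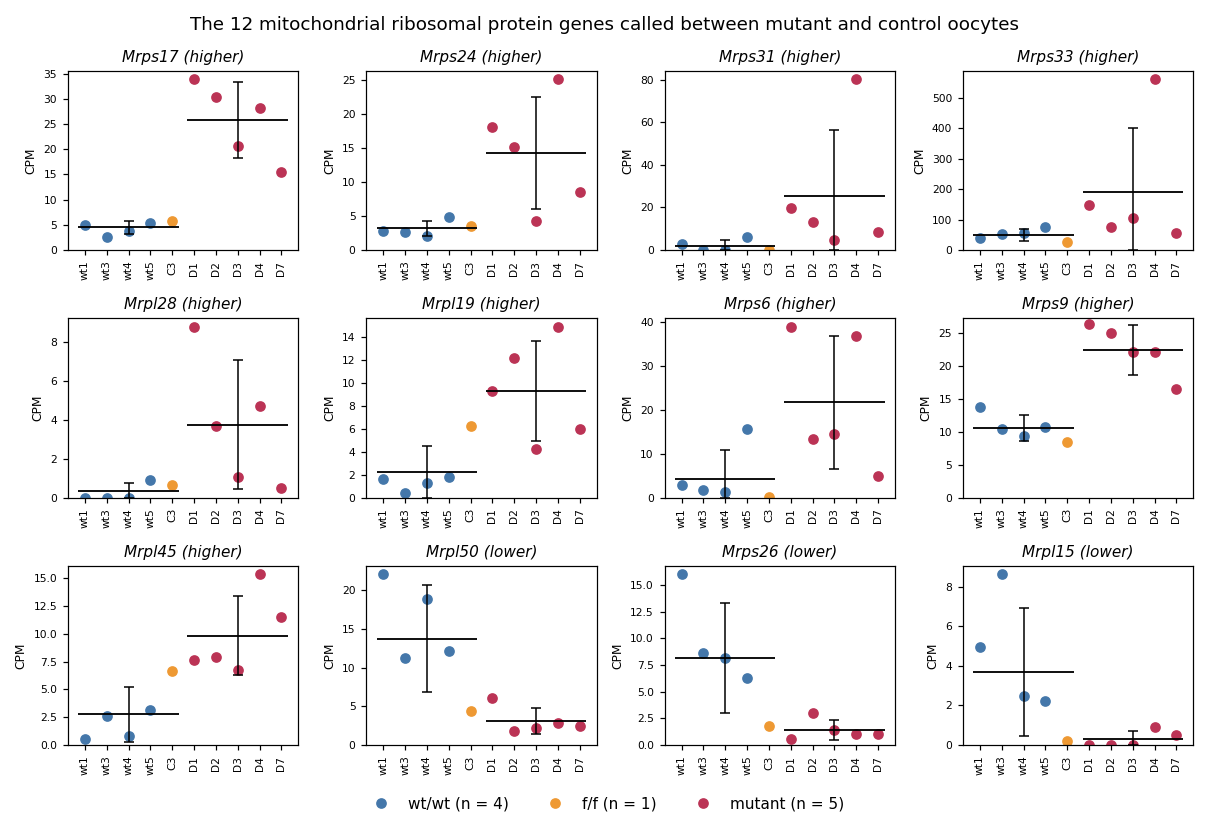
CPM (vertical axis, from 0) of the 12 called members in each of the 10 oocytes, with lines at the mean of the 5 control and the 5 mutant oocytes and bars of 1 SD, ended at 0 where the SD exceeds the mean. The f/f oocyte C3 lies within the wt/wt range for Mrps24 and within the mutant range for Mrpl50, Mrps26 and Mrpl15.

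With each oocyte left out in turn, Mrps17, Mrps24 and Mrpl50 were called all 10 times, and Mrps31, Mrps33 (both lost without D4) and Mrps26 (lost without wt1) 9 times. The other calls depended on single oocytes, with Mrpl15 called 4 of the 9 times it was tested and, out of 10, Mrpl28 called 4 times, Mrpl19 3 times, Mrps6 2 times and Mrps9 and Mrpl45 1 time each. The number of members called was 5 to 13 over these fits, 5 without wt1, 6 without wt3, D1, D2 or D4, 7 without wt4 and 13 without C3. As a share of those tested, members called went from 7.81% without wt1 to 19.7% without C3, while all genes called went from 17.6% without D1 to 31.5% without C3. For the 9 higher members the f/f oocyte was below every mutant oocyte in 7 and inside the mutant range in 2, Mrpl19 and Mrpl28. Over all 1353 genes called higher it was below every mutant oocyte in 72.8%, and C3 was itself among the controls of these calls. Against wt/wt it was inside the range in 3 of the 9, above it in 3 and below it in 3, beside 55.4%, 33.9% and 10.8% of all genes called higher.

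Over the 66 tested members, all mutant oocytes lay above all control oocytes in 4 (6.06%), Mrps17, Mrps9, Mrpl45 and Mrps5, against 8.09% of all genes tested. All mutant oocytes lay below all control oocytes in 0 members, against 8.09% of all genes tested. Mrps5, a small subunit protein whose bacterial counterpart guards decoding accuracy, was at 1.11, 3.02, 2.45 and 0.449 CPM in wt/wt, 1.55 in f/f and 9.87, 5.48, 3.92, 3.65 and 3.99 in mutant oocytes. Although its groups were apart, it was not called by edgeR (log2 fold change 1.60, standard error 0.66, adjusted p = 0.0839). DESeq2 called it (log2 fold change 1.65, adjusted p = 0.048), as the 1 alternative of the 22 that tested it. With wt/wt oocytes alone as the reference, mutant oocytes were lower without overlap in 4 members (6.06%, against 12.4% of all genes tested), the 3 called lower and Mrpl16, and higher in 5 (7.58%, against 13.8%), Mrpl19 and the 4 above.

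By subunit, 7 of 22 tested small subunit members (31.8%, 6 higher and 1 lower) and 5 of 43 large subunit members (11.6%, 3 higher and 2 lower) were called. Of all genes tested, 25.9% were called, 14.7% higher and 11.2% lower. Small subunit members had a median log2 fold change of 0.27 and large subunit members of 0.07. The calls by subunit depended on single oocytes. Without D4 they were Mrps17, Mrps24 and Mrps26 in the small and Mrpl49, Mrpl15 and Mrpl50 in the large subunit. Without wt1 they were Mrps17, Mrps24, Mrps31 and Mrps33 in the small and Mrpl50 in the large subunit. With all oocytes kept, members with bacterial counterparts had 7 of 43 called (16.3%), with a median of 0.41. Those found in mitochondria alone had 5 of 22 (22.7%), with a median of -0.03. These shares were not compared by a test.

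Members known for a defined role in translation were followed whatever their values. In the large subunit stalk that recruits elongation factors, Mrpl10 was at 29.8, 8.63, 14.3 and 17.0 CPM in wt/wt, 56.8 in f/f and 25.8, 30.5, 10.7, 25.7 and 11.97 in mutant oocytes. The f/f oocyte was the highest and the other groups overlapped (log2 fold change -0.29, standard error 0.51, adjusted p = 0.713), and the sign turned to 0.28 without it. Its stalk partner Mrpl12 had 0 to 10 counts in control and 0 to 16 in mutant oocytes, and Mrpl11, at the stalk base, had 2 to 14 and 2 to 26. Scaled for depth, the means in control and mutant oocytes were 1.90 and 0.91 CPM for Mrpl12 and 2.15 and 1.72 CPM for Mrpl11. Neither gene was called (log2 fold change -0.83 and -0.27, adjusted p = 0.637 and 0.817).

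Mrps12, the decoding centre protein, was at 0.444 to 3.14 CPM in control and at 9.32, 0.609, 1.07, 5.48 and 1.99 in mutant oocytes, with overlapping groups (log2 fold change 1.47, standard error 0.86, adjusted p = 0.215). Mrpl44, a protein with an RNase III fold, was among the steadiest of these, at 25.9 ± 6.04 CPM in control and 23.05 ± 5.74 in mutant oocytes (log2 fold change -0.16, standard error 0.37, adjusted p = 0.767). Mrps36 was at 182 ± 68.9 CPM in control oocytes and 231 ± 53.3 in mutants (adjusted p = 0.49), and Mrpl18 had 119 ± 47.0 and 114 ± 50.1 (adjusted p = 0.928).

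**Figure D3:**
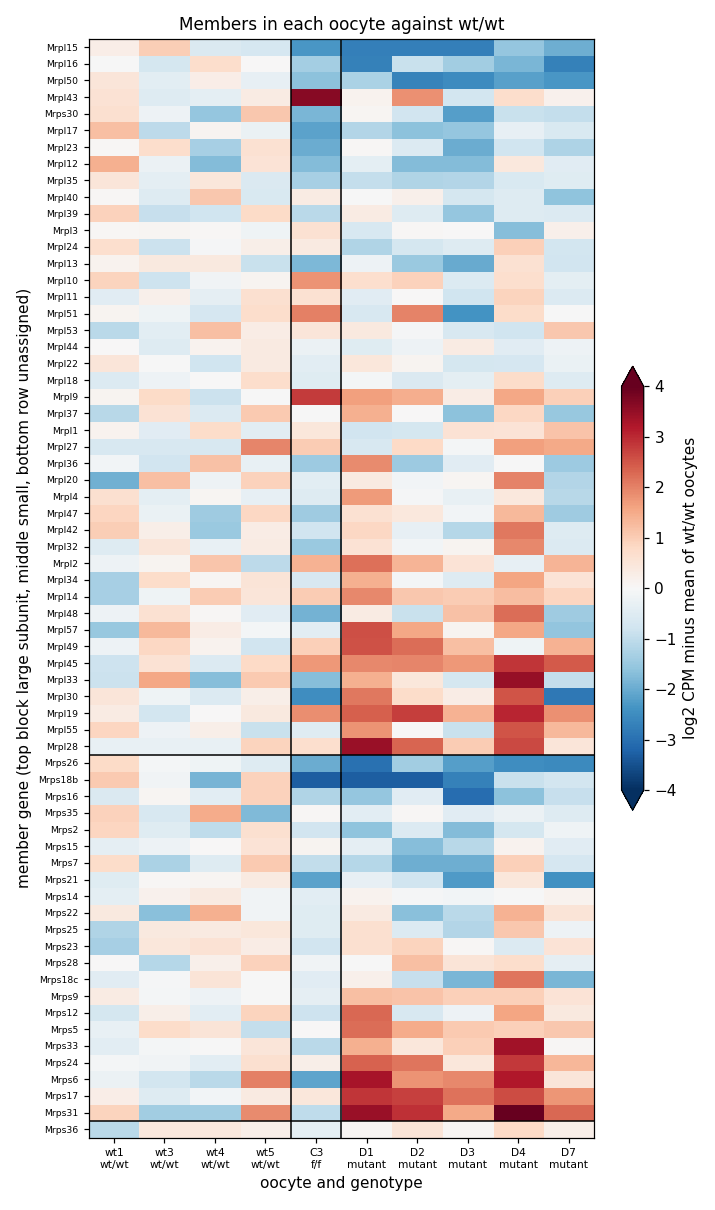
Log2 CPM of each tested member (rows: large subunit at the top, small subunit below, Mrps36 last; sorted by fold change within blocks) in each oocyte (columns), minus the mean of the 4 wt/wt oocytes; red is higher and blue lower. Colours vary among mutant oocytes, with D4 the highest of the 10 oocytes in 22 of the 66 members and D3 in 0.

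The mutant oocytes differed among themselves. D4 was the highest of the 10 oocytes in 22 of the 66 members (33.3%), against 21.4% of all genes tested, and D1 in 13 (19.7%, against 13.2%). D3, D7 and D2 were the highest in 0, 1 and 2 members, against 4.94%, 6.58% and 6.68% of all genes tested. D4 was also the deepest mutant oocyte, with 75 of the 77 members counted, while D1, D2, D3 and D7 had 60 to 65. The median difference of members from the wt/wt mean was 0.74 in D4, 0.34 in D1, -0.04 in D2, -0.42 in D7 and -0.49 in D3 on the log2 CPM scale. Between 2 libraries of the same oocyte name the median absolute log2 difference over members was 0.29 to 0.54. It was 0.61 to 1.31 between mutant oocytes and 0.67 to 0.95 between wt/wt oocytes. The first range compared single libraries and the others oocytes with their libraries summed, each on its own TMM scale, so depth and scaling differed between them. Without D4, 6 members were called (9.84%, against 22.1% of all genes), Mrps17, Mrps24 and the gained Mrpl49 higher and the same 3 members lower.

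Summed over the 77 genes, members took 965, 1158, 1193 and 1292 CPM in wt/wt, 1066 in f/f and 1419, 1251, 1029, 2261 and 1051 in mutant oocytes. The mean was 1135 ± 125 CPM (SD, n = 5) in control and 1402 ± 506 (n = 5) in mutant oocytes, and 1188 ± 184 (n = 4) in mutant oocytes without D4. As a percent of all counts the direction turned, with 0.136 ± 0.0412% in control, 0.123 ± 0.0518% in mutant oocytes and 0.0693% in f/f, and without D4 the mutant oocytes had 0.100 ± 0.00876% (n = 4), so that no change of the summed level held under both scalings.

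**Figure D4:**
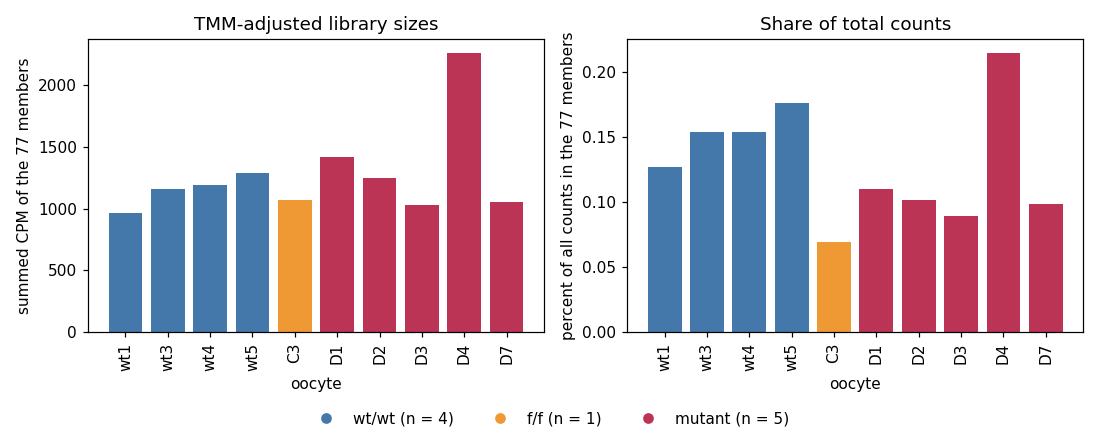
Summed level of the 77 members in each oocyte as CPM over TMM-adjusted library sizes (left) and as percent of all counts (right); bars start at 0 and are coloured by genotype. D4 is highest in both panels, and C3 is lowest in the right panel alone.

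The second comparison placed the single f/f oocyte, the control that shares the mixed B6;129 background of the mutants. It was below every wt/wt oocyte in 23 of the 66 members (34.8%), against 23.4% of all genes tested, and above every wt/wt oocyte in 11 (16.7%), against 28.4%. Against the mutant oocytes it was below all 5 in 18 members (27.3%), against 24.4% of all genes tested, and above all 5 in 6 (9.09%), against 25.1%. The median difference of f/f from the wt/wt mean was -0.49 over members and 0.03 over all genes tested on the log2 CPM scale. Counted as 1 oocyte, f/f has no replicate and no test. Under library totals it was below every wt/wt oocyte in 37 members (56.1%, against 47.8% of all genes tested) and above in 5 (7.58%, against 10.5%). It was then below every mutant oocyte in 26 (39.4%, against 32.6%) and above in 3 (4.55%, against 15.1%).

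**Figure D5:**
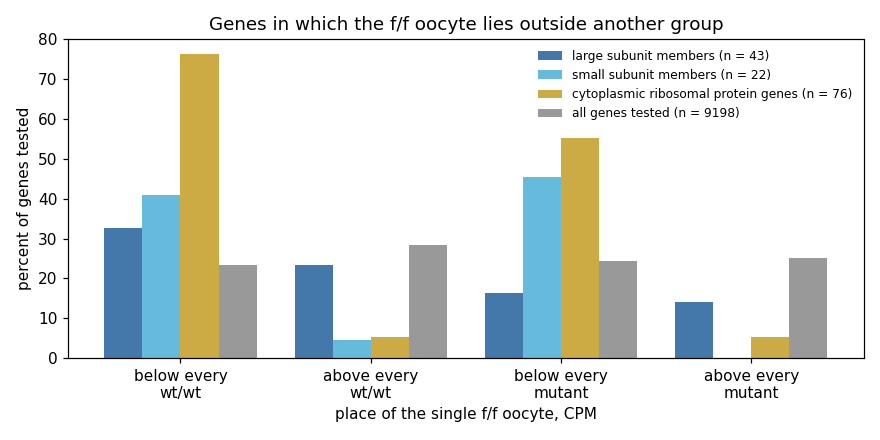
Percent of tested genes (vertical axis) in which the f/f oocyte lies below or above every oocyte of another group, for 43 large and 22 small subunit members, 76 cytoplasmic ribosomal protein genes and all 9198 genes tested. The f/f oocyte is below every wt/wt oocyte in 34.8% of members and 76.3% of cytoplasmic ribosomal protein genes, against 23.4% of all genes.

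By subunit, f/f was below every wt/wt oocyte in 14 of 43 large (32.6%) and 9 of 22 small subunit members (40.9%), against 23.4% of all genes tested, and above every wt/wt oocyte in 10 of 43 (23.3%) and 1 of 22 (4.55%), against 28.4%. It was below every mutant oocyte in 7 of 43 (16.3%) and 10 of 22 (45.5%), against 24.4%. These shares were not compared by a test. The f/f oocyte was above all other oocytes in 5 of 66 members (7.58%), all of them among the 43 large subunit members (11.6%), against 12.9% of all genes tested. Several large subunit members stood far above the other oocytes in f/f and were chosen after their values were seen. Mrpl43, found in mitochondria alone, was at 50.6 CPM in f/f, against 2.16 to 5.53 in wt/wt and 1.78 to 14.01 in mutant oocytes. Mrpl9, whose bacterial counterpart stretches out from the large subunit, was at 107 CPM in f/f, against 7.77 to 25.5 and 18.2 to 47.7. Both f/f libraries carried these reads, with 83 and 145 counts for Mrpl43 and 218 and 262 for Mrpl9. Mrpl43 overlaps Twnk and Mrpl9 overlaps Oaz3 on the other strand. In the other direction, Mrps18b had 0 counts in f/f, against 1.23 to 13.8 CPM in wt/wt and 0 to 3.49 in mutant oocytes.

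Genes that work beside these members were called in few cases by edgeR. Of 81 other mitochondrial translation genes in the table, 46 were tested, with a median log2 fold change of 0.02. Of these, 2 were called higher and 2 lower (8.70% in all, against 25.9% of all genes tested). DESeq2 called 9, voom 8 and edgeR without wt1 called 1, while 30.5%, 34.5% and 19.3% of all genes were called. Tfb2m, a mitochondrial transcription initiation factor, was at 46.4, 54.4, 57.2 and 51.1 CPM in wt/wt, 35.7 in f/f and 8.23, 9.75, 15.7, 16.4 and 8.97 in mutant oocytes. All mutant oocytes were below all controls, the f/f oocyte included (log2 fold change -2.03, standard error 0.37, adjusted p = 0.00162). Gtpbp10, a GTPase of large subunit assembly, was also lower, at 21.6 ± 9.16 CPM in control and 7.89 ± 2.52 in mutant oocytes (log2 fold change -1.46, adjusted p = 0.0326), with overlapping groups.

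The 2 called higher were Tsfm and Eral1. Tsfm, the exchange factor for mitochondrial elongation factor Tu, was at 5.53, 1.73, 2.45 and 0.449 CPM in wt/wt, 27.1 in f/f and 37.8, 35.9, 53.1, 27.1 and 38.9 in mutant oocytes, so f/f lay with the mutants (log2 fold change 2.30, adjusted p = 0.0279, and 3.96 without C3). Eral1, a chaperone of small subunit ribosomal RNA, had 0 to 2 counts in wt/wt, 7 in f/f and 7 to 17 in mutant oocytes. In CPM it was at 0 to 0.863 in wt/wt, 1.55 in f/f and 3.84, 6.70, 6.05, 1.22 and 4.49 in mutant oocytes, with D4 alone below f/f. The log2 fold change was 2.52 (adjusted p = 0.0347), and 3.15 without C3. Both calls were lost without wt1, wt3, wt4 or D3 and with GC and length trends removed. Eral1 was called in 11 of the 22 alternatives that tested it and Tsfm in 18 of 23, whereas Tfb2m was called in all 23 and Gtpbp10 in 14. Of 5 tested subunits that go by other names, edgeR called 0, with 0 at an unadjusted p under 0.05 and 0 called by DESeq2 or voom. Among them Dap3, a GTP-binding small subunit protein, ranged from 3.14 to 59.3 CPM in control and 8.19 to 30.5 in mutant oocytes (adjusted p = 0.499). Ptcd3, an RNA-binding small subunit protein, lay between 9.49 and 31.8 CPM in control oocytes and between 14.5 and 35.9 in mutants (adjusted p = 0.674). Ict1, the release factor of the large subunit, had 0 to 6 counts an oocyte and was not tested. Of 5 tested mitochondrial aminoacyl-tRNA synthetases, edgeR called 0, with 1 (Fars2) at an unadjusted p under 0.05, 0 called by DESeq2 and 1 (Fars2) by voom. Pet112, a subunit of the glutamyl-tRNA amidotransferase that had been listed with them, was not called (log2 fold change -2.35, unadjusted p = 0.037, adjusted p = 0.103). With it counted, 2 of 6 were at an unadjusted p under 0.05.

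Cytoplasmic ribosomal protein genes had 27 of 76 tested called, 9 higher and 18 lower, and a median log2 fold change of -0.89, against 12 of 66 and 0.16 for the mitochondrial ribosomal protein genes. As a share of those tested, 11.8% were higher and 23.7% lower, beside 14.7% and 11.2% of all genes, whose median was 0.17. Nuclear genes of the respiratory chain and ATP synthase had 23 of 75 called, 22 higher (29.3%) and 1 lower (1.33%), with a median of 1.02. For cytoplasmic ribosomal protein genes the direction depended on the control. Their median difference of mutant oocytes on the log2 CPM scale was -1.17 from wt/wt and 1.48 from the f/f oocyte. It was 0.08 and 0.48 for members, 0.91 and 1.02 for respiratory chain genes and 0.20 and 0.08 for all genes. The f/f oocyte was below every mutant oocyte in 55.3% of cytoplasmic ribosomal protein genes, against 24.4% of all genes. The 3 sets share the same oocytes, and their differences were not tested.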

How the data were processed

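The deposited table holds RefSeq gene counts of 14 single-oocyte libraries. The authors made these counts by poly(A)-primed amplification of single oocytes, read filtering, alignment to mm10 with TopHat, selection of unique best alignments and HTSeq, without normalization. Per the submitters' processing notes the versions were TopHat2 2.0.6 and HTSeq 0.5.3p9, and whether counting used strand is not given in the sources used here. Coordinates, transcript lengths and overlaps came from GENCODE annotation of GRCm38, matched by symbol for all 77 members.

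Groups followed the genotype labels, and libraries sharing an oocyte name were summed, following the number of oocytes per group in the study's methods, although the descriptions number each library as a separate oocyte. Counts were fitted in R 4.3.3 with edgeR 4.0.16 (TMM, glmQLFit, glmQLFTest, 5 mutant against 5 control oocytes, no covariate) on the top 60% of genes by summed counts, 9198 of 15432 with a count, which here meant at least 35 summed counts. A call needed an adjusted p under 0.05 over all genes tested and a change of at least 1 on the log2 scale. Log2 CPM values used a prior count of 2. The depth, 1375187 counts in wt1 to 6928548 in C3, sets what 3 counts stand for, 0.433 to 2.18 CPM before TMM adjustment. The 11 members not tested had 1 to 26 counts over all oocytes.

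The members, their subunits and classes, and the other lists were chosen with earlier results of these data known. Named members were those called, those whose groups did not overlap, the 3 highest per kb in wt/wt oocytes and members fixed by role, and among other translation genes those called. The alternatives were DESeq2 1.42.0, limma 3.58.1 voom with quality weights, library totals, upper-quartile scaling, no filter, filterByExpr, adjusted p alone, each library as its own sample with or without a replicate block, wt/wt oocytes alone as control, counts thinned to 1375187, removal of GC and length trends (loess, span 0.5) and each oocyte left out. Leaving out C3 and D4 together was added after the data were seen. The fit was tested on simulated data with known changes.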

Additional observations from a re-analysis of the deposited data

Results flagged for a closer look

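In groups of 5 oocytes a gene was noted when the gap between its highest or lowest oocyte and the nearest other one exceeded 0.71 of the group's range. This held in 7 of 42 sets examined. Chance gives about 1 in 20 for normally distributed values, and the rate for CPM of genes with low counts, many of them chosen because they were called, was not computed.

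D4 stood above the other mutant oocytes for 3 genes. Its Mrps33 level was 561 CPM with the next mutant oocyte at 149 (gap 0.816 of the range), its Mrps31 level 80.3 with the next at 19.7 (0.80), and its Mrpl18 level 200 with the next at 114 (0.716). In D1, Mrpl50 was at 6.03 CPM with the next mutant oocyte at 2.89 (0.747), and in D3, Mrpl44 was at 32.8 with the next at 22.5 (0.724). Among control oocytes, Mrpl19 in the f/f oocyte C3 was at 6.22 CPM with the next at 1.79 (0.764), and Mrps6 in wt5 was at 15.7 with the next at 2.76 (0.836).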

How the results depend on the processing

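The 12 called members kept their direction in every alternative that tested them, and Mrps17 was called in all 23. Of 23 alternatives, Mrps9 was called in 6, Mrps6 in 8 and Mrpl45 in 10. Under library totals Mrps33, Mrps6, Mrps9 and Mrpl45 lost their calls, and with GC and length trends removed Mrps24 (adjusted p = 0.0668), Mrpl28, Mrpl45, Mrps6 and Mrps9 did. Against 12 members called, filterByExpr gave 7, all higher, with 30 members tested (23.3%, and 30.5% of all genes) and the 3 lower members not among them, DESeq2 gave 15 (22.7%, and 30.5%), voom gave 14 (21.2%, and 34.5%) and each library as its own sample gave 14 (21.2%, and 31.4%). Labels reuse oocyte numbers between groups, and libraries of the same number had correlations of their deviations from the group mean of -0.09 to 0.10. For C3 these deviations lay between 2 libraries of 1 oocyte, so the correlations cannot settle whether the numbers pair the samples. With each library as its own sample and the replicate block, 1 member was called (Mrps17), and 966 of all genes against 2384. The median log2 fold change of members became -0.34 with GC and length trends removed, while that of all genes became -0.04. Under library totals all mutant oocytes were above all controls in 2 members against 4 (5.60% of all genes against 8.09%), and f/f was below every wt/wt oocyte in 37 members against 23 (47.8% of all genes against 23.4%). With an oocyte left out in turn, 5 to 13 members were called (17.6% to 31.5% of all genes), the median was -0.08 to 0.39 and 4 to 9 members had groups that did not overlap. Without C3 those members numbered 9, 5 higher (7.58%, and 13.8% of all genes) and 4 lower (6.06%, and 12.4%). Without wt5 they numbered 8, all higher (12.1%, and 11.3% of all genes).

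Direction turned for genes that were not called. Mrpl10 gave 0.17 with voom, 0.28 with wt/wt oocytes alone, 0.18 without C3 and D4, and -0.48 to 0.28 with an oocyte left out. Mrpl18 gave 0.013 with each library as its own sample and -0.35 to 0.23 with an oocyte left out. Mrps36 gave -0.14 under library totals and -0.19 with GC and length trends removed, Ptcd3 gave -0.086 under library totals, and Mrpl11 gave 0.23 with thinned counts. The causes were not tested. Other mitochondrial translation genes called ranged from 1 to 9 against 4, while all genes called ranged from 10.5% to 34.5% against 25.9%. Low counts limit what the 11 members not tested and those with a few counts an oocyte can show. The part of depth in this was not tested.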
